A study of Homo sapiens with 4 samples.

Results

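The zinc finger gene clusters of human chromosome 19 were examined as 6 spans, called clusters A to F here, in maps of enriched regions for 53BP1 and for RNA polymerase II (Pol II) with its C-terminal repeats phosphorylated at serine 5 (S5p) or at serine 2 (S2p). The spans in hg19 were chr19:11600000-12600000 (A), chr19:19800000-24200000 (B), chr19:36500000-38300000 (C), chr19:44300000-45000000 (D), chr19:52400000-53900000 (E) and chr19:56500000-59000000 (F), which makes 11.9 Mb. A region was a member when at least 1 bp of it lay in a span. The clusters held 1110 of the 128734 regions of the 3 lists (0.862%), made up of 98 of 11604 53BP1 regions, 465 of 62530 S5p regions and 547 of 54600 S2p regions. The rest of chromosome 19, with 697, 2702 and 2188 regions, served as the comparison.

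The cells were MCF10A, an immortal human breast epithelial line that is not of tumour origin, grown under normal conditions, crosslinked with formaldehyde and sonicated. Chromatin immunoprecipitation with sequencing (ChIP-seq) was done for 53BP1, Pol II S5p and Pol II S2p, with 1 library each, and the series also has an input library that was not analysed here. All values below therefore describe these libraries, with no spread between replicates. Intervals are exact Clopper-Pearson 95% intervals, which cover counting error only and take regions as independent.

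Many human zinc finger genes of the KRAB family lie in tandem clusters on chromosome 19, where they arose by repeated duplication. Their proteins bind DNA through arrays of C2H2 zinc fingers, and the KRAB domain recruits the corepressor TRIM28, which brings histone H3 lysine 9 trimethylation to many transposable elements. Pol II carries S5p at and just after the start of genes and gains S2p as it elongates, and 53BP1 is a chromatin protein best known for its work at DNA breaks and for binding p53. Well-known genes of the 6 clusters are ZNF44 (A), ZNF91 (B), ZNF420 (C), ZNF224 (D), ZNF83 (E) and ZNF304 (F), named from general knowledge and not from the files. ZNF91 is known for the repression of SVA elements, a family of retrotransposons.

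The content of the spans could not be checked gene by gene, because no annotation of hg19 was at hand. In a RefSeq table of another build, GRCh38, 265 of the 1451 protein-coding genes of chromosome 19 (18.3%) had names of zinc finger families, which is 47.2% of the 562 such names in the genome. Among the 20 nearest protein-coding genes of each landmark in that table, 18 had such a name for ZNF44, 14 for ZNF91, 19 for ZNF420, 19 for ZNF224, 17 for ZNF83 and 13 for ZNF304. Genes of other families thus lie among them, and no region below is assigned to a gene.

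The clusters carried fewer 53BP1 and S5p regions per Mb than the rest of chromosome 19, and S2p regions at about the same density. There were 8.24 53BP1 regions per Mb in the clusters and 14.9 in the rest of the chromosome, a ratio of 0.555 (interval 0.444 to 0.686). S5p regions numbered 39.1 per Mb in the clusters and 57.6 in the rest, a ratio of 0.679 (0.614 to 0.749). S2p regions numbered 46.0 per Mb in the clusters and 46.6 in the rest, a ratio of 0.986 (0.896 to 1.08). Chromosome 19 is rich in regions as a whole, so the clusters were still denser than the rest of the genome, by 2.09 times for 53BP1, 1.84 times for S5p and 2.48 times for S2p. S2p regions covered 12.1% of the bases of the clusters and 19.99% of the bases of the rest of the chromosome, and S5p regions covered 7.12% of the clusters and 17.5% of the rest.

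The 6 clusters differed widely among themselves, and B weighed most in the total. B makes up 4.4 of the 11.9 Mb and held 2.05 53BP1, 12.5 S5p and 18.4 S2p regions per Mb. Only 16 of its 44 bins of 100 kb held an S5p region, and its longest stretch with no region of any list was 1358 kb. Without B, the clusters were at 0.799 times the density of the rest for 53BP1, 0.9495 times for S5p and 1.33 times for S2p.

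The clusters at the end of the long arm were the densest. F held 14.8 53BP1, 68.8 S5p and 65.6 S2p regions per Mb, and its 53BP1 density was 0.997 times that of the rest of the chromosome (0.696 to 1.39). E held 12, 68 and 84.7 regions per Mb of the 3 kinds, and its S2p density was 1.82 times that of the rest (1.51 to 2.17). C held 11.7 53BP1, 40 S5p and 56.7 S2p regions per Mb. D held 7.14, 40 and 64.3 per Mb and A held 8, 36 and 28. For scale, 43 windows of 1 Mb on the rest of the chromosome held 0 to 41 53BP1 regions (median 13), 0 to 104 S5p regions (median 62) and 0 to 88 S2p regions (median 48). Every cluster lay within the range of single windows for each list. Because the lowest windows held 0 regions, no sparse cluster could have fallen below that range.

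**Figure D1:**
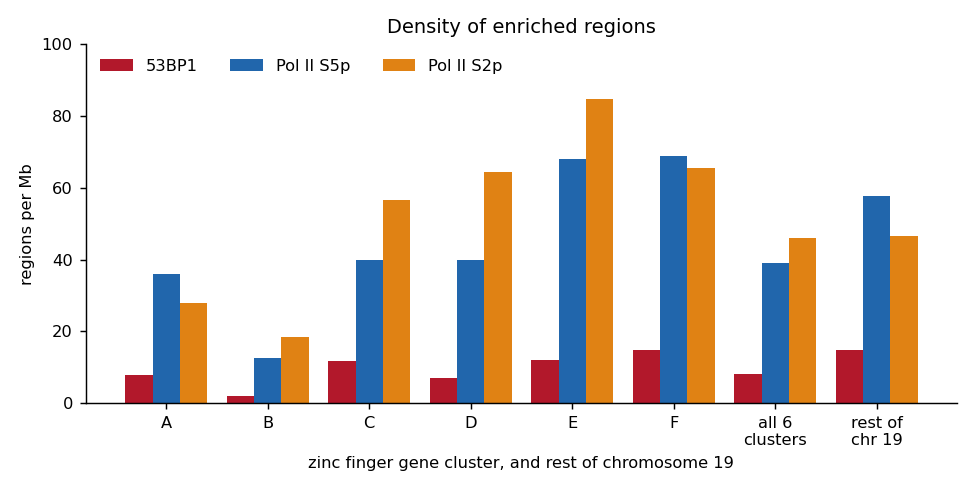
Enriched regions per Mb (y axis) of 53BP1, Pol II S5p and Pol II S2p in each zinc finger cluster, in all 6 together and in the rest of chromosome 19 (x axis), with 1 library per bar colour. Cluster B is the lowest for every list, with 2.05 53BP1 regions per Mb, and E has the highest S2p density at 84.7 per Mb.

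Every 53BP1 region of the clusters lay on Pol II S5p. All 98 met an S5p region (100%, 96.3 to 100), against 682 of 697 on the rest of the chromosome, where the share was 97.8%, and 97.5% on the other chromosomes. The S5p partner was nearly always a strong one. When the whole S5p list was ranked by the deposited fold, 95 of the 98 regions (96.9%, 91.3 to 99.4) sat on S5p of the top quintile, against 95.2% of the 682 in the rest. The weakest partner in the clusters was at percentile 77.0. Summits were close, with a median distance of 68.5 bp between a 53BP1 summit and that of its S5p region (quartiles 20 and 173.5), against 104 bp in the rest and 78 bp on other chromosomes. With windows of 250 bp on each side of the summits of both lists in place of whole regions, 92.9% of the 53BP1 regions of the clusters and 68.0% of those in the rest still met S5p. Each S5p region has 1 summit, so such windows can miss 53BP1 elsewhere on a wide S5p region. The S5p partners were wider in the rest, and the part of width was not tested.

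The S5p regions under 53BP1 were compact in the clusters. Their median width, taken over the 53BP1 regions, was 1664 bp in the clusters, 6970 bp in the rest of the chromosome and 3013 bp on the other chromosomes. The 98 53BP1 regions shared 92 S5p regions, of which 4 held more than 1 and the fullest held 4, while in the rest of the chromosome 102 of 516 S5p regions held more than 1, up to 6. Across the 98 regions the fold of 53BP1 followed the fold of its S5p partner with a Spearman rho of 0.397, against 0.344 over 682 regions in the rest and 0.423 on the other chromosomes. These coefficients describe regions of single libraries that may share input noise.

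The 53BP1 regions differed in rank between the clusters. Median percentiles in the whole 53BP1 list were 24.2 in A, 35.4 in B, 42.8 in C and 10.4 in D, but 59.2 in E and 58.1 in F, which held 18 and 37 of the 98. Over all 98 the fold ran from 3.08 to 24.8 with a median of 5.59, against a median of 6.04 in the rest of the chromosome, and the median percentile was 43.1, against 50.8. Of the 98, 11 belonged to the top quintile of the list (11.2%, 5.74 to 19.2), against 138 of 697 in the rest (19.8%, 16.9 to 22.95). F held 7 of those 11, A, B, C and E held 1 each, and D held 0 of its 5. The median width was 456.5 bp in the clusters, 533 bp in the rest and 564 bp on other chromosomes.

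In the deposited lists a smaller share of 53BP1 regions reached S2p in the clusters. S2p was met by 70 of 98 regions (71.4%, 61.4 to 80.1), against 564 of 697 in the rest, a share of 80.9% (77.8 to 83.8), and 78.8% on other chromosomes. Thus 28 regions of the clusters (28.6%) lay on S5p alone, against 17.5% in the rest. Those 28 had a median fold of 4.83 and a median width of 354 bp, while the 70 on both forms of Pol II had 6.05 and 528.5 bp. With −log10 q-values of at least 5 the shares were 77.6% of 67 in the clusters and 80.4% of 496 in the rest, a difference of -2.83 percentage points in place of -9.49. The difference was -5.36 without A, -5.64 without B and -18.6 without F. The direction turned when windows of 250 bp on each side of the summits of both lists were compared. The window of the 53BP1 summit then overlapped that of an S2p summit for 56.1% of regions in the clusters and 44.9% in the rest. S2p regions met by top-quintile S5p had a median width of 1886 bp in the clusters, 7694 bp in the rest and 2103 bp on other chromosomes. The clusters were thus near the other chromosomes in this width. The part of width in the 53BP1 difference was not tested.

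The clusters fell into different patterns for S2p under 53BP1. S2p was met by 2 of 8 53BP1 regions in A, 3 of 9 in B and 2 of 5 in D, but by 16 of 21 in C, 15 of 18 in E and 32 of 37 in F. The intervals run from 3.19% to 65.1% in A, from 7.49% to 70.1% in B and from 71.2% to 95.5% in F. Those of A and B thus did not overlap that of F, while that of D did. The intervals of A, B and D overlapped those of C and E.

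**Figure D2:**
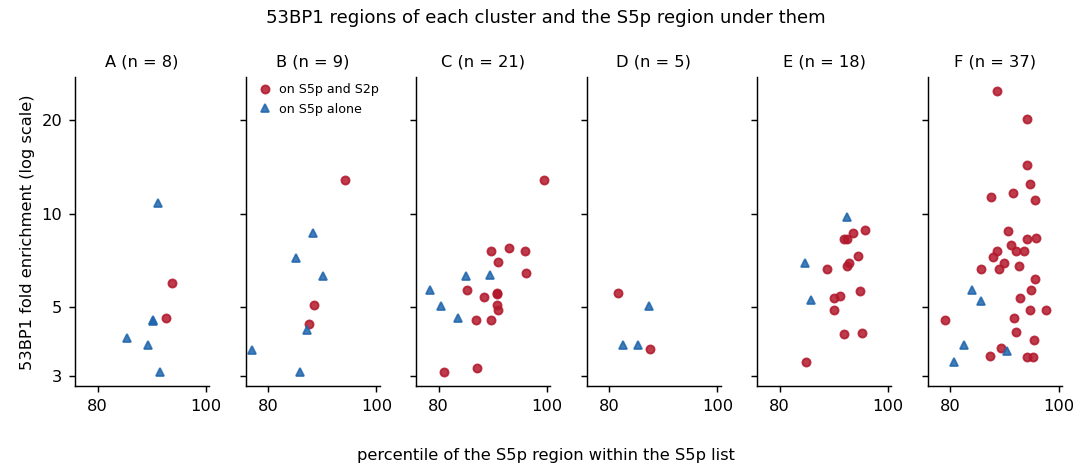
Each point is 1 of the 98 53BP1 regions of the clusters, 1 panel per cluster, with the percentile of its S5p region in the S5p list (x axis) and its own 53BP1 fold enrichment (y axis, log scale). Red circles lie on S5p and S2p and blue triangles on S5p alone. All points lie at or above percentile 77.0 of S5p, triangles prevail in A, B and D, and the highest 53BP1 folds, up to 24.8, are in F.

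S5p regions of the clusters met 53BP1 about as often as elsewhere on the chromosome. The share was 92 of 465 (19.8%, 16.3 to 23.7), against 19.1% of 2702 in the rest. At like S5p strength, with the rest weighted to the members' quintiles, the share of the rest was 21.9%, a difference of -2.11 percentage points. Few of the weaker S5p regions met 53BP1 in any group. Of the 323 S5p regions in the lower quintiles, 3 met 53BP1 (0.929%, 0.192 to 2.69), against 31 of 1993 in the rest (1.56%).

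The top quintile of S5p, which begins at a fold of 8.49, held 142 regions of the clusters, 30.5% of their S5p regions, and 709 of the rest, 26.2%. D had the largest share of strong regions, 14 of 28, and A had 14 of 36, B 14 of 55, C 27 of 72, E 28 of 102 and F 45 of 172. Of the 142, 89 met 53BP1 (62.7%, 54.2 to 70.6), against 68.4% in the rest and 71.7% on other chromosomes. By cluster these were 8 of 14 in A, 8 of 14 in B, 19 of 27 in C, 5 of 14 in D, 18 of 28 in E and 31 of 45 in F. The interval of the clusters includes the share of the rest, but the comparison depended on the settings. With −log10 q-values of at least 5 the shares were 44.4% in the clusters and 56.7% in the rest. Among strong S5p regions under 2 kb they were 57% of 100 (46.7 to 66.9) in the clusters and 55.1% of 234 (48.5 to 61.6) in the rest, and among those of 2 kb or more 76.2% of 42 (60.6 to 87.9) and 74.9% of 475 (70.8 to 78.8).

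Strong S5p regions were narrow in the clusters. Their median width was 1428 bp (quartiles 1062 and 2260), against 3487 bp (1619 and 10220) in the rest of the chromosome and 2458 bp on other chromosomes, although their median folds were near each other at 19.5, 21.3 and 23.99. Regions of 5 kb or more made up 17 of the 142 (11.97%, 7.13 to 18.5), against 306 of 709 in the rest (43.2%, 39.5 to 46.9) and 26.2% on other chromosomes. Of the 17, F held 10, C held 3, E held 2, A and B held 1 each and D had 0. The median width was lowest in D at 999 bp and B at 1016 bp, and highest in F at 1910 bp, which was still below that of the other chromosomes.

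**Figure D3:**
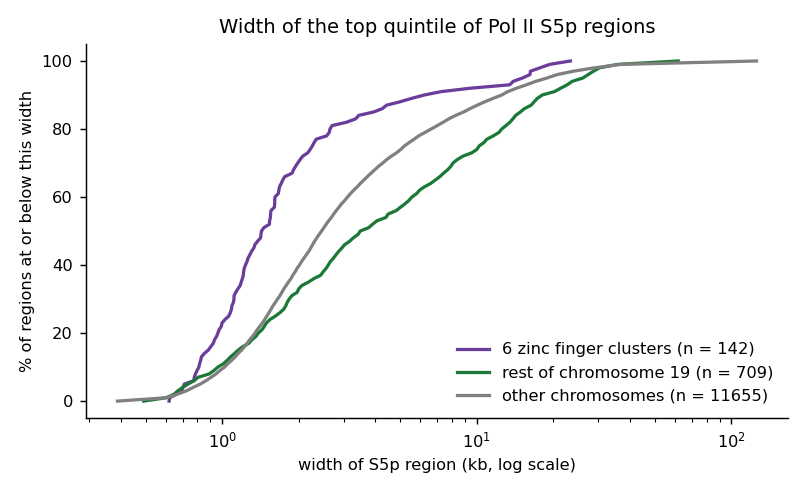
Cumulative percentage of top-quintile Pol II S5p regions (y axis) by width (x axis, kb, log scale) in the 6 zinc finger clusters, the rest of chromosome 19 and the other chromosomes. The curve of the clusters lies to the left, with a median of 1428 bp, against 3487 bp in the rest of chromosome 19 and 2458 bp elsewhere.

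Fewer of these strong S5p regions touched S2p. S2p was met by 92 of 142 in the clusters (64.8%, 56.3 to 72.6), against 82.4% in the rest (79.4 to 85.1) and 76.3% on other chromosomes. The shortfall lay in A with 3 of 14, B with 4 of 14 and D with 5 of 14, while C had 19 of 27, E 24 of 28 and F 37 of 45. The difference went with width. Among strong S5p regions under 2 kb, 50% of 100 in the clusters met S2p (39.8 to 60.2), against 51.7% of 234 in the rest (45.1 to 58.3), and among those of 2 kb or more 100% of 42 did (91.6 to 100), against 97.5% of 475 (95.6 to 98.7). With windows of 250 bp on each side of the summits of both lists, the shares were 54.2% in the clusters and 51.2% in the rest. The intervals of both groups overlapped within each width class, so no difference was resolved there at this number of regions. These classes pool clusters that differed at similar widths. The median width of strong S5p was 1275 bp in A, 1346 bp in C and 1575 bp in E. A wider region also has more bases with which to touch S2p, and the part of width was not tested.

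**Figure D4:**
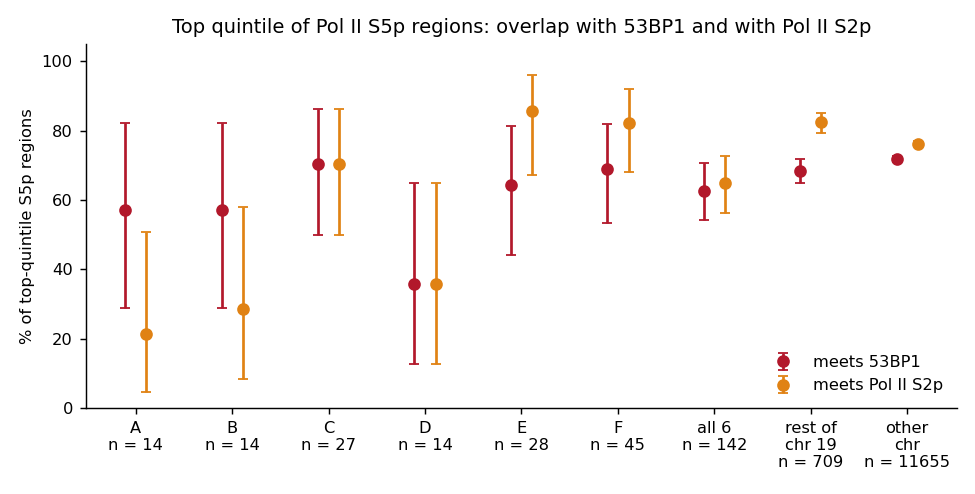
Percentage of top-quintile Pol II S5p regions (y axis) that met 53BP1 (red) or Pol II S2p (orange) in each cluster, in all 6, in the rest of chromosome 19 and on the other chromosomes (x axis, with the number of regions). Points are shares and bars are 95% counting intervals, and S2p is at 21.4% in A and 28.6% in B but 85.7% in E and 82.2% in F.

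Strong S5p in the clusters fell into 4 classes by its partners. 53BP1 and S2p together were on 64 of 142 (45.1%), which had a median S5p fold of 27.3 and a median width of 2004 bp. 53BP1 without S2p was on 25 (17.6%, 11.7 to 24.9) with a fold of 15.0 and 1095 bp, S2p without 53BP1 on 28 (19.7%) with 15.9 and 1574 bp, and neither on 25 (17.6%) with 11.7 and 880 bp. In the rest of the chromosome the shares were 59.4% with both, 9.03% with 53BP1 only (7.02 to 11.4), 22.99% with S2p only and 8.60% with neither. Where S2p was present, 53BP1 was on 69.6% of 92 strong S5p regions of the clusters and 72.1% of 584 in the rest. Where it was absent, 53BP1 was on 50% of 50 in the clusters and 51.2% of 125 in the rest. The strength of S5p also differs between those classes, so the shares do not isolate S2p.

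Strong S5p regions without S2p were far from the next S2p region in several clusters. The 50 such regions lay a median of 13869 bp from S2p (quartiles 5162 and 22358), against 6767 bp for 125 in the rest and 23804 bp on other chromosomes. S2p was found within 20 kb of 124 of the 142 strong S5p regions (87.3%, 80.7 to 92.3), against 96.2% in the rest and 87.2% on other chromosomes. The 18 with none in that distance were 7 in B, 4 in A, 4 in C and 3 in D, and E and F had 0. Summits of neighbouring strong S5p regions were a median of 39992 bp apart in the clusters and 30218 bp in the rest, with the closest spacing in F at 27022 bp and the widest in B at 121212 bp.

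In the other direction, most S2p regions of the clusters lay away from S5p. Only 248 of 547 met S5p (45.3%, 41.1 to 49.6), against 68.4% in the rest of the chromosome and 54.5% on other chromosomes. The 299 without S5p (54.7%, 50.4 to 58.9) compare with 691 of 2188 in the rest (31.6%, 29.6 to 33.6). The share without S5p was 71.4% of 28 in A, 65.4% of 81 in B, 60.8% of 102 in C, 71.1% of 45 in D, 53.5% of 127 in E and 39.0% of 164 in F. In the 37 windows of 1 Mb of the rest with at least 10 S2p regions, that share had a median of 28.2% and a range of 6.90% to 70.6%. B, C, E and F were within the range, and A and D were just above the highest window. The intervals of A (51.3 to 86.8) and D (55.7 to 83.6) include that window.

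The gap was as large among narrow S2p regions. Among S2p regions under 2 kb, 28.1% of 359 in the clusters met S5p, against 52.3% of 1307 in the rest. Over the quintiles of S2p by fold, in rising order, the share with S5p was 15.3%, 18.6%, 28.0%, 51.9% and 93.7% in the clusters, against 42.9%, 45.2%, 53.2%, 76.1% and 98.5% in the rest. The gap was wide up to the fourth quintile and narrow in the strongest. With windows around summits it shrank to 31.6% in the clusters and 37.6% in the rest.

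**Figure D5:**
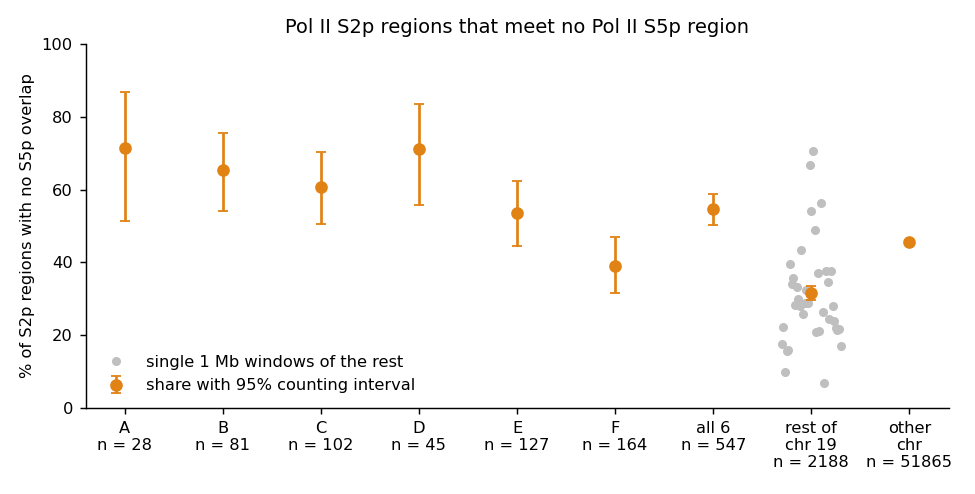
Percentage of Pol II S2p regions with no S5p overlap (y axis) in each cluster, in all 6, in the rest of chromosome 19 and on the other chromosomes (x axis, with the number of regions). Orange points are shares with 95% counting intervals and grey points are single 1 Mb windows of the rest, which run from 6.90% to 70.6%, and all 6 clusters lie above the share of the rest, 31.6%.

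S2p regions without S5p were small and of low rank, and their distance from S5p differed between the clusters. In the clusters their median width was 810 bp and their median percentile 39.0, against 762 bp and 35.6 in the rest. They lay a median of 5938 bp from the nearest S5p region of any strength, against 2906 bp in the rest and 5460 bp on other chromosomes. The nearest top-quintile S5p region was 14041 bp away in the clusters, against 15472 bp in the rest and 30750 bp elsewhere. In A the median distance to any S5p was 16970 bp, in C 10760 bp, in E 4150 bp and in F 2592 bp. The distance expected from the density of S5p regions was not computed, so these values do not show nearness to S5p.

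S2p tracts were short in the clusters. When S2p regions less than 5 kb apart were joined, the clusters had 197 tracts with a median length of 4963 bp, against 581 tracts of 11781 bp in the rest of the chromosome and 16852 tracts of 5140 bp on other chromosomes. No S5p lay on 77 of the 197 tracts (39.1%, 32.2 to 46.3), against 15.0% in the rest and 30.3% on other chromosomes. 53BP1 was on 52 tracts of the clusters (26.4%, 20.4 to 33.1), against 51.5% in the rest and 36.4% elsewhere. The longest tract of the clusters, in E, joined 28 regions over 115814 bp, and the longest in F spanned 109477 bp.

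Single S2p regions met 53BP1 in 63 of 547 cases (11.5%, 8.96 to 14.5), against 19.3% in the rest and 13.7% on other chromosomes. With 250 bp windows around summits the shares were 10.1% in the clusters and 14.2% in the rest. Wide S2p regions, of 5 kb or more, numbered 72 in the clusters (13.2%), against 24.3% in the rest and 13.9% on other chromosomes. F held 33 of the 72, E 14, C 9, B 7, D 5 and A 4. Of the 72, 69 met S5p (95.8%, 88.3 to 99.1) and 18 met 53BP1 (25%, 15.5 to 36.6), against 98.9% and 35.2% in the rest. Of the 3 wide regions without S5p, chosen after their values were seen, 1 lay in A at chr19:12062782-12069818 with a fold of 7.94, and 2 lay in D at chr19:44356994-44362717 with 5.47 and chr19:44753958-44759078 with 4.42.

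The leading regions of each cluster show these patterns one by one, with folds as the authors gave them and ranks within a list. In A, the strongest 53BP1 region (chr19:11669739-11670468, fold 10.9, percentile 89.2) lay on an S5p region of 1131 bp with a fold of 26.6 and met no S2p. The strongest S5p region of A (chr19:12035255-12036801, fold 33.8) carried 53BP1 with a fold of 5.95 and an S2p region of 632 bp with a fold of 4.52. The strongest S2p region of A, which was also its widest (chr19:11615436-11626199, 10764 bp, fold 27.4), overlapped an S5p region with a fold of 30.5 and carried a 53BP1 region with a fold of 4.62. The other 53BP1 regions of A had folds from 3.08 to 4.53, so the cluster had strong S5p under mostly weak 53BP1.

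In B, the strongest 53BP1 and the strongest S5p region coincided. The 53BP1 region (chr19:23577962-23578515, fold 12.8, percentile 94.0) lay at the right end of an S5p region of 7327 bp (chr19:23571302-23578628, fold 35.4), which overlapped S2p of 8311 bp with a fold of 6.90. The strongest S2p region of B (chr19:23830498-23833374, fold 12.1) met S5p with a fold of 6.03 and no 53BP1. The widest S2p region of B (chr19:23499851-23509942, 10092 bp, fold 9.68) met S5p with a fold of 4.37 and no 53BP1. Elsewhere in B, 3 53BP1 regions on S5p alone had folds from 6.30 to 8.68, at chr19:21203367-21203941, chr19:21324775-21325163 and chr19:21511916-21512373, which were picked out after their values were seen.

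In C, 1 locus near the start of the span led. The S5p region chr19:36629647-36645913, 16267 bp wide, had the largest S5p fold of the 6 clusters at 91.6 (percentile 99.5). It carried the strongest 53BP1 region of C (chr19:36630367-36632331, 1965 bp, fold 12.8) and lay in the widest S2p region of C (chr19:36629888-36653543, 23656 bp, fold 22.03). The strongest S2p region of C (chr19:36716541-36735530, 18990 bp, fold 33.9) met an S5p region with a fold of 12.5 and no 53BP1. C thus held long S2p without 53BP1 as well as a locus with all 3.

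D had the weakest 53BP1. The strongest of its 5 regions (chr19:44669018-44669545) had a fold of 5.55, at percentile 42.8, on S5p with a fold of 9.71 and S2p with a fold of 8.11. The other 4 had folds from 3.66 to 5.06. The strongest S5p region of D (chr19:44859746-44861425, 1680 bp, fold 28.1) met no 53BP1 and an S2p region of 450 bp with a fold of 2.71. The strongest and widest S2p region of D (chr19:44677749-44686903, 9155 bp, fold 14.2) met S5p with a fold of 4.42 and no 53BP1.

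In E, the strongest 53BP1 region (chr19:53360593-53361037, 445 bp, fold 9.77) lay on a narrow S5p region of 827 bp with a fold of 30.0 and met no S2p. The strongest S5p region (chr19:53236685-53239327, fold 42.6) carried 53BP1 with a fold of 8.89 and S2p of 825 bp with a fold of 6.83. The strongest and widest S2p region (chr19:52718334-52740907, 22574 bp, fold 25.5) met 4 S5p regions with a largest fold of 11.2 and no 53BP1. The longest S2p of E and its strongest 53BP1 were thus at different places.

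F held the strongest 53BP1 of the clusters. The region chr19:58912438-58913326 had a fold of 24.8, at percentile 99.1 of the list, on S5p with a fold of 20.7 and S2p with a fold of 10.4. It stood next to the S2p region chr19:58891481-58911327, which was 19847 bp wide and had the largest S2p fold of the clusters at 123 (percentile 99.9). That region overlapped S5p of 18303 bp with a fold of 35.3 and carried 4 53BP1 regions, the strongest with a fold of 20.2. The strongest S5p region of F (chr19:58010709-58012671, fold 53.9) carried 53BP1 with a fold of only 4.91. The widest S2p region of the clusters (chr19:58762685-58791242, 28558 bp, fold 10.3) met S5p with folds up to 21.4 and 53BP1 with a fold of 6.62.

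The median 53BP1 and S2p folds of F were higher near its end, and that of S5p was not. Regions were placed in the last 100 kb or in the remainder by their summits. The last 100 kb held 8 of its 37 53BP1 regions, with a median fold of 7.93 and 3 in the top quintile, against a median of 5.66 and 4 of 29 in the remainder. The median S2p fold was 10.4 in the last 100 kb and 4.20 in the remainder. The summed widths of the S2p regions came to 73.0% of the last 100 kb and 20.9% of the remaining 2400 kb. These are not shares of bases covered, because whole widths were summed. The S2p region with a fold of 123 was counted in the last 100 kb although it begins before that stretch. The strongest 53BP1 region on it, with a fold of 20.2, fell in the remainder, so this locus was split. The median S5p fold was 3.79 in the last 100 kb and 4.41 in the remainder, with largest folds of 37.6 and 53.9. Summed in the same way, S5p widths came to 38.2% and 15.6% of those lengths. Which genes lie in this stretch could not be read in hg19.

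The 5 strongest S5p regions of the clusters without 53BP1 lay in E, F, E, F and D. They were chr19:52598335-52599595 with a fold of 32.7, chr19:58280706-58284051 with 31.2, chr19:53288879-53290414 with 29.1, chr19:58192914-58194332 with 28.3 and chr19:44859746-44861425 with 28.1, all between percentiles 91.8 and 93.4 of the S5p list. All 5 met S2p, with S2p folds from 2.71 to 4.37. The S5p partner of a 53BP1 region in the clusters was at a median percentile of 90.3, below all 5, so S5p fold alone did not separate regions with and without 53BP1.

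Numbers inside and outside the borders of the spans were similar in sum but not at single borders. In the 100 kb inside and the 100 kb outside all 12 edges there were 21 and 28 53BP1 regions, 59 and 68 S5p regions, and 58 and 65 S2p regions. At the start of B there were 2 S5p regions inside and 14 outside, and at its end 0 S2p regions inside and 12 outside. At the end of A there were 0 S2p regions inside and 9 outside, and at the end of F 19 S5p regions inside and 7 outside. The last region inside an edge had a median fold of 5.21 for 53BP1, 6.53 for S5p and 4.77 for S2p, and the first region outside had 5.30, 5.09 and 4.24. Only 1 S5p and 1 S2p region crossed an edge, both at the start of C.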

How the data were processed

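Regions enriched in ChIP-seq of 53BP1, Pol II S5p and Pol II S2p were used as the authors deposited them, 1 list and 1 library per ChIP, grouped by the sample titles. Per the submitters' processing notes, bcl2fastq 2.20.0.422 made the reads and positions are in hg19. Neither the aligner nor the peak caller or its control library is named, so both count as not given in the sources used here. Each region has a fold, the authors' ratio over background, a summit, and significance as the deposited −log10 q-value and −log10 p-value. Read depth is unknown, so folds rank regions within a list only, and numbers and widths do not compare the 3 factors. A more deeply sequenced library gives more and wider regions. If 1 input served every list, its noise is shared.

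Rows on sequences other than chromosomes 1 to 22 and X (1, 2 and 1 rows) were dropped. The length of the rest of chromosome 19 was 46.9 Mb, from the first to the last region with the spans left out, and it includes a stretch of 3.89 Mb with no region. Regions met when they shared at least 1 bp. Quintiles and percentiles come from each whole list by fold. No test was possible with 1 library per ChIP, and shares have Clopper-Pearson intervals. The regions named are, for each span, the strongest of each list and the widest S2p region, and the 5 strongest S5p regions without 53BP1. The spans, lists and limits were chosen with earlier results of these data known. Alternatives were a −log10 q-value of 5, membership by summit, 50% coverage, 250 bp windows around summits, the rest of the genome, quintiles by −log10 q-value, only bins with regions, and each span left out. The overlap code was tested on simulated data. Tools were matplotlib 3.10.9, scipy 1.17.1, pandas 2.3.3 and numpy 2.4.6 under Python 3.11.15.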

Additional observations from a re-analysis of the deposited data

How the results depend on the processing

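Each ChIP had 1 library of unknown depth, so differences have no replicate error beside them, and regions too shallow to be called are not seen. No paired analysis was possible because no ChIP was repeated. Limiting regions to 2 kb, 50 bins in place of quintiles and leaving out 100 kb at the edges were added after seeing the data. Of 173 alternatives of 21 results, 136 gave a value within the interval of the reported one. These were counting intervals, except for the S2p coverage ratio, which had a set band of 1.5 times either way. Intervals of differences in share take the comparison share as fixed and leave out its counting error. Of these 136, 7 lay on the other side of no difference, all in 3 results whose own interval includes it. Strong S5p with 53BP1 was -5.73 percentage points and gave 1.82 with 50% covered, 1.87 under 2 kb and 1.24 at 2 kb or more, but -12.3 at a −log10 q-value of 5 and -8.85 against the rest of the genome. S5p with 53BP1 was 0.688 and gave -2.19 at a −log10 q-value of 5, -0.776 without C and -0.624 without the edges, and the S2p density ratio was 1.02 without A. Other than the change of definition itself, causes were not tested.

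Against the rest of the genome the density ratios were 2.09 for 53BP1 and 1.84 for S5p, which turned the direction, and 2.48 for S2p. The differences in share, clusters minus comparison in percentage points, were then 2.46 for 53BP1 on S5p, 4.62 for S5p with 53BP1, 14.9 for S5p with S2p, -2.43 for S2p with 53BP1, -9.71 for S2p with S5p and -15.2 for strong S5p of 5 kb or more. With 250 bp windows they were 24.9 for 53BP1 on S5p, 11.2 for 53BP1 on S2p (turned from -9.49), 3.03 for strong S5p with S2p (turned from -17.6), -4.16 for S2p with 53BP1 and -5.94 for S2p with S5p. With 50% of a region covered, 53BP1 on S5p gave 3.01 and S2p with 53BP1 gave -1.78. With regions under 2 kb, 53BP1 on S5p gave 2.18 and strong S5p with S2p gave -1.71, and with regions of 2 kb or more the last gave 2.53. At a −log10 q-value of 5, S5p with S2p gave -2.42 and S5p with 53BP1 at like strength gave -6.32. Medians at that limit were percentile 60.2 and 548 bp for 53BP1, 79.1 and 1369 bp for S5p, and 74.2 and 2374 bp for S2p, since the limit removes weak and narrow regions.

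Leaving out each cluster in turn, density ratios ranged from 0.437 to 0.799 for 53BP1, 0.541 to 0.9495 for S5p and 0.866 to 1.33 for S2p, with the highest value in each without B. Differences in share ranged from -18.6 to -5.36 for 53BP1 on S2p, 2.15 to 2.15 for 53BP1 on S5p, -9.63 to -6.41 for S2p with 53BP1, -29.8 to -21.2 for S2p with S5p, -0.776 to 1.38 for S5p with 53BP1 (-3.05 to -1.13 at like strength), -1.45 to 6.09 for S5p with S2p, -25.7 to -12.8 for strong S5p with S2p, -8.61 to -2.78 for strong S5p with 53BP1 and -35.9 to -29.9 for strong S5p of 5 kb or more.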

Other observations

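The weaker S5p regions of the clusters, those below the top quintile, met S2p more often than the strong ones in the sum of the clusters, but not in each. S2p was met by 257 of 323 (79.6%, 74.8 to 83.8), against 68.0% of 1993 in the rest of the chromosome and 55.5% on other chromosomes. The share was 54.5% of 22 weaker regions in A, 73.2% of 41 in B, 86.7% of 45 in C and 78.6% of 14 in D, each above the strong regions of that cluster. In F it was 83.5% of 127, close to the 82.2% of its strong regions. Only E went the other way, with 79.7% of 74, against 85.7% of its strong regions. Within every single cluster the intervals of weaker and strong regions overlapped. Of the 323, 134 (41.5%, 36.1 to 47.1) lay on an S2p region of 5 kb or more, against 38.9% in the rest and 26.2% elsewhere, and F held 63 of the 134. In the clusters the share with S2p was 64.8% in the top quintile, against 81.4% in the lowest quintile, whereas in the rest of the chromosome it was 82.4% in the top quintile and 61.8% in the lowest.

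Of the strong S5p regions of the clusters, 29 met an S2p region of 5 kb or more. The S5p summit was counted in the outer 20% on either side in 17 of these 29 cases (58.6%, 38.9 to 76.5), against 227 of 347 in the rest (65.4%). In 4 of the 29 and 78 of the 347 the summit lay outside the S2p region. The shares are thus not shares of summits inside wide S2p regions. The strand of the genes is not known from these lists.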
